A study of Mus musculus with 2 samples.

Results

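The genes described here are 8 genes known as markers or products of the uterine glands: Foxa2, Sox9, Cited4, Cxcl15, Wfdc3, Spink1, Prss29 and Gas6. They were chosen by name, with earlier results of these data known, and all 8 were among the 19070 genes measured. Single-cell transcript counts were taken from endometrium of pregnant mice at day 3. The controls were Erbb3 f/f (1 library), and the other library came from Erbb3 d/d females, whose stroma lacks Erbb3 per the labels. About 25 mg of tissue was minced, fixed for 16 h and dissociated, and transcripts were read with pairs of hybridising DNA probes (the Chromium Flex assay), which count molecules as unique molecular identifiers (UMIs). The labels do not give the Cre driver of the deletion, the strain, the age or the number of females behind each library, and the floxed allele is carried by the controls too. With 1 library per genotype no test was possible. Every difference between f/f and d/d is a difference between 2 libraries, and every interval below is a 95% interval that covers counting error only.

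Uterine glands are epithelial tubes that bud from the luminal epithelium into the stroma after birth and secrete the factors that a mouse embryo needs before and during implantation. FOXA2, a forkhead transcription factor, is found in the glandular but not in the luminal epithelium of the mouse uterus and is needed for gland formation. SOX9 is a transcription factor of progenitor and glandular epithelium in many organs, and CITED4 is a co-activator that binds the p300 and CBP acetyltransferases. The other 5 genes encode secreted proteins. Cxcl15 encodes a chemokine, Wfdc3 a whey acidic protein with four-disulphide core domains, Spink1 an inhibitor of trypsin-like proteases, Prss29 an implantation serine protease made with its neighbour Prss28, and Gas6 the ligand of the receptor tyrosine kinases AXL, MERTK and TYRO3.

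In the RefSeq annotation of GRCm38.p6, Foxa2 (ENSMUSG00000037025) lies at chr2:148042877-148046969, Sox9 (ENSMUSG00000000567) at chr11:112782210-112787757 and Cited4 (ENSMUSG00000070803) at chr4:120666563-120667820. Cxcl15 (ENSMUSG00000029375) lies at chr5:90794534-90803067, Wfdc3 (ENSMUSG00000076434) at chr2:164731226-164745994, Prss29 (ENSMUSG00000034039) at chr17:25318654-25322684 and Gas6 (ENSMUSG00000031451) at chr8:13465374-13494535. All are protein-coding genes. RefSeq start windows matched 6 of the 8 symbols. The 250 bases upstream of the start are shown for 4 members that were lower together in the d/d epithelium and whose window holds no annotated exon of the gene, with matches in capitals. Searched on both strands were TATAAA, a form of the TATA box, and a pair of forms of the core that FOXA proteins bind, TATTTAC in one form, with TGTTTAC as the other. No match overlapped another. For Foxa2 the outermost of 3 annotated starts was used.
Foxa2 (chr2:148046970-148047219, minus strand): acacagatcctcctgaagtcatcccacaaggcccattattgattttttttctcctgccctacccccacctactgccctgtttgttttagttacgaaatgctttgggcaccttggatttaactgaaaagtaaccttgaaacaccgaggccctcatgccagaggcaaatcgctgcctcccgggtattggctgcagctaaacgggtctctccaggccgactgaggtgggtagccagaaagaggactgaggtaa
Cited4 (chr4:120666313-120666562, plus strand): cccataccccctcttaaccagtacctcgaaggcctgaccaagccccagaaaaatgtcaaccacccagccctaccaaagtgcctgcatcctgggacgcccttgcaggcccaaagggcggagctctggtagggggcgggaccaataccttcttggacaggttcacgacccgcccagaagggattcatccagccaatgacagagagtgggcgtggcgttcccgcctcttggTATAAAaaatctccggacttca
Cxcl15 (chr5:90794284-90794533, plus strand): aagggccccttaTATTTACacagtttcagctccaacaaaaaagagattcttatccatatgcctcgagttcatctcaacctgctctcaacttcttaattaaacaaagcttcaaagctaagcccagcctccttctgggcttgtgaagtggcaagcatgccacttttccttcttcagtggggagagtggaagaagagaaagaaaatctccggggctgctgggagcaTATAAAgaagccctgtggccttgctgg
Gas6 (chr8:13494536-13494785, minus strand): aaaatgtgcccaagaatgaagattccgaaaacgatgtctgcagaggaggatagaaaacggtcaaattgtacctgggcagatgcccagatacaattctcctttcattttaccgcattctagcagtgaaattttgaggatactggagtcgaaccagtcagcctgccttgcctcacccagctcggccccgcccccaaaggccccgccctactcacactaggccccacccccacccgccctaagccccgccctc
Cited4 and Cxcl15 hold TATAAA beginning 22 and 27 bases before the start, and Prss29, not printed, holds it 29 bases before its start. Of all 32851 windows of this length, 12.4% hold TATAAA on either strand. Only Cxcl15 among the matched members holds a FOXA-type core, TATTTAC, beginning 238 bases before the start, and 5.76% of all windows hold TATTTAC or TGTTTAC. The windows of Foxa2 and Gas6 shown hold none of the 3 strings, which says nothing about sites elsewhere, and the window of another Foxa2 start holds TATAAA 208 bases before it.

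After filtering, 5502 cells (5516347 UMIs) of the f/f library were used and 1825 (1704041 UMIs) of the d/d library, with medians of 809 and 763 UMIs per cell. Barcodes with more than 10% mitochondrial UMIs and a few called doublets were left out, and these together held 19.1% of the f/f and 40.6% of the d/d UMIs. Cells were clustered without the 8 genes, and clusters were named from marker genes. Epithelial-like cells numbered 2844 in f/f and 1051 in d/d, shares of 51.7% (95% interval 50.4 to 53.0) and 57.6% (55.3 to 59.9). Different clusters held most of them in the 2 libraries. A cluster led by Slc5a11 and Slc51a held 1362 f/f and 23 d/d cells, a cluster led by the mitotic genes Troap and Spag5 held 508 and 650, and a cluster led by Bpifb5, Krt23, Slc2a3 and Cxcl15 held 721 and 54. No full cell barcode was shared by the libraries, and 158 were shared in their first part. All 8 epithelial markers were detected in the epithelial-like cells of both libraries, at a summed 2825 CPM (UMIs of the gene per 1000000 UMIs of the class) in f/f and 3364 CPM in d/d. The 7 stromal markers there summed to 238 and 295 CPM, against 4512 and 5110 CPM in the stroma-like cells. Stroma-like cells held 5 f/f UMIs and 1 d/d UMI of Erbb3, the deleted gene, too few to check the labels. Epithelial-like cells held 218 and 37 (78.1 and 38.6 CPM), a log2 ratio of -1.02 (-1.56 to -0.51), so Erbb3 was lower in the d/d epithelium too. Where its probes lie relative to the deleted part is not given in the sources used here.

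The glandular cells were found without the 8 genes. Another set of genes, Syn2, Gulo and Dab1, chosen with earlier results of these data known, served as the gate: an epithelial-like cell with at least 2 UMIs of the 3 together was called glandular-gated, and a cell with 0 luminal-gated. By this gate 275 of 2844 epithelial-like cells were glandular in f/f, a share of 9.67% (8.61 to 10.8). In d/d 20 of 1051 were, 1.90% (1.17 to 2.92), and the shares differed by -7.77 percentage points (-9.13 to -6.29). A second way took the whole epithelial sub-cluster in which the gate genes were highest. By this measure 692 cells or 24.3% (22.8 to 26.0) of the f/f epithelium were in the glandular sub-cluster, against 45 cells or 4.28% (3.14 to 5.69) of the d/d epithelium, and the shares differed by -20.1 points (-22.0 to -17.9). The d/d share was lower under each of the 15 alternative gates, filters and clusterings tried, although its size ranged from 0.571% to 8.66% in d/d and from 4.08% to 24.3% in f/f.

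The gate genes themselves were lower in d/d, so the share and the level of the gate genes cannot be told apart with the per-cell gate. In epithelial-like cells Gulo had 539 f/f and 50 d/d UMIs (193 and 52.1 CPM), Syn2 had 256 and 21 (91.7 and 21.9 CPM), and Dab1 had 361 and 47 (129 and 49.0 CPM). The 2 gates also overlapped only in part. Of the f/f cells of the glandular sub-cluster, 207 were glandular-gated, 195 had a single gate UMI and 290 had none. Of the 45 d/d cells there, 7 were glandular-gated, 9 had a single gate UMI and 29 had none. The glandular sub-cluster is therefore used below for levels inside glands, although 13 of the 20 d/d glandular-gated cells lay outside it. In d/d, Syn2 and Dab1 were higher there than in the other epithelial sub-clusters (log2 ratios 3.68, 2.13 to 5.08, and 4.12, 3.20 to 5.01). Gulo was not, at 55.5 against 52.0 CPM (2 and 48 UMIs, 0.09, -2.99 to 2.03). The name of the d/d cells there thus rests on Syn2 and Dab1. By the per-cell gate, where the d/d level rests on at most 4 UMIs of any member, only Gas6 had an interval below 0, at 338 CPM in f/f and 85.8 CPM in d/d (107 and 2 UMIs, log2 ratio -1.98, -5.04 to -0.09). The ratio was -0.70 (-2.60 to 0.71) for Cited4, -0.14 (-3.25 to 1.84) for Sox9, -0.04 (-5.45 to 2.67) for Foxa2 and 2.44 (-0.95 to 5.05) for Spink1. Cxcl15 had 42 UMIs in f/f glandular-gated cells and 0 in d/d, a bound of at least 1.03-fold lower whose interval reaches above 0.

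**Figure D1:**
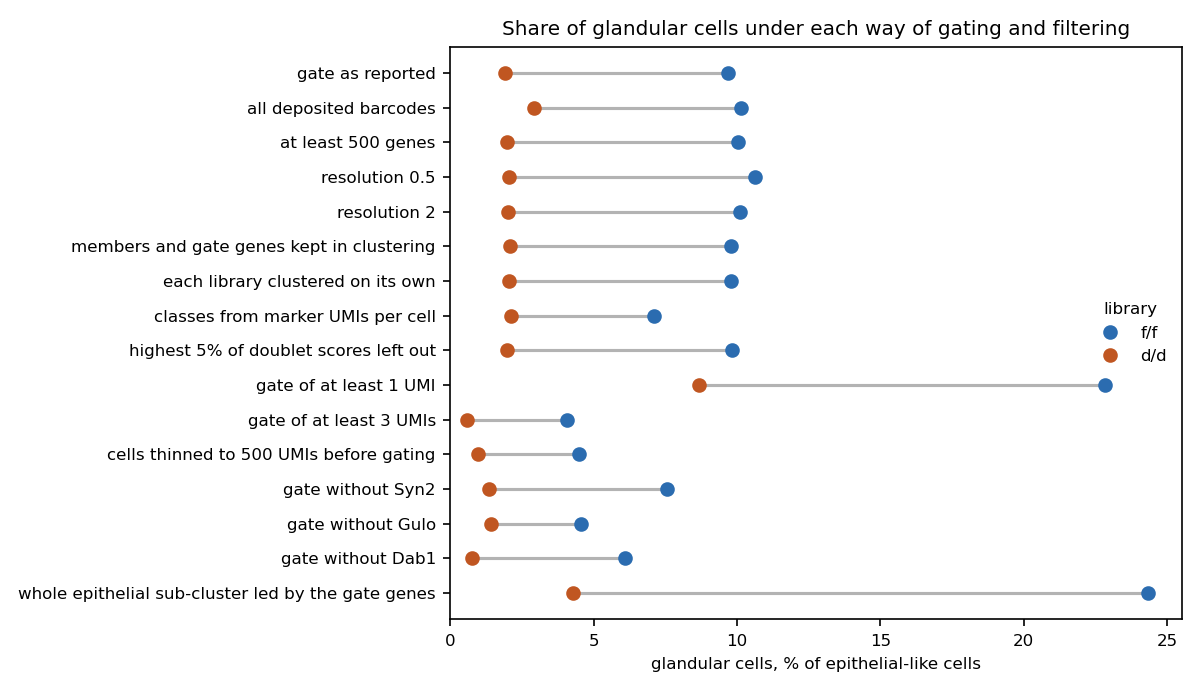
Glandular cells as a percentage of epithelial-like cells (x axis) in the f/f library (blue) and the d/d library (orange), 1 line for each way of gating, filtering or clustering. The d/d point lies left of the f/f point on all 16 lines, from 1.90% against 9.67% for the gate as reported to 4.28% against 24.3% for the whole sub-cluster.

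Among the transcriptional regulators, Foxa2 was scarce in both libraries and was lower in the d/d epithelium. It had 48 UMIs in f/f epithelial-like cells (17.2 CPM, 12.7 to 22.8) and 5 in d/d (5.21 CPM, 1.69 to 12.2), a log2 ratio of -1.72 (-3.41 to -0.40). At the f/f level 16.5 UMIs would have been counted in d/d. Inside the f/f glandular sub-cluster it stood at 61.8 CPM (37 UMIs), 12.3 times the 5.02 CPM (11 UMIs) of the other epithelial sub-clusters. The d/d glandular sub-cluster held 1 Foxa2 UMI (27.8 CPM, 0.70 to 155), which leaves its level in the remaining d/d gland cells undetermined at this depth. In the other epithelial sub-clusters the libraries were at 5.02 and 4.33 CPM, a log2 ratio of -0.21 (-2.32 to 1.54). The f/f level there was close to that of f/f stroma-like cells, 5.33 CPM from 5 UMIs, and macrophage-like cells had 16.1 CPM from 7 UMIs.

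Cited4 was the regulator with the most UMIs, and it was lower in d/d both in the glandular sub-cluster and in the other epithelial sub-clusters. Its f/f epithelial-like level was 147 CPM (133 to 162, 411 UMIs) and its d/d level 48.0 CPM (35.1 to 64.0, 46 UMIs), a log2 ratio of -1.62 (-2.09 to -1.18). In the glandular sub-cluster it went from 322 CPM in f/f to 111 CPM in d/d (193 and 4 UMIs), a log2 ratio of -1.54 (-3.43 to -0.16). The per-cell gate did not give this lower gland level, with -0.70 (-2.60 to 0.71), or 0.07 (-0.50 to 0.62) with all deposited barcodes. In the other epithelial sub-clusters it went from 99.5 to 45.5 CPM (218 and 42 UMIs), a log2 ratio of -1.13 (-1.64 to -0.65). The share of cells with a Cited4 UMI was 11.7% in f/f and 3.71% in d/d epithelial-like cells, and 7.01% and 2.10% after each cell was thinned to 500 UMIs. Of the stroma-like cells, with median depths of 708.5 UMIs (f/f) and 661.5 UMIs (d/d) against 828 and 786 in the epithelium, 1.57% and 1.49% had a Cited4 UMI. Within the mitotic cluster, the best filled in both libraries, Cited4 was at 61.9 and 27.8 CPM (43 and 18 UMIs), a log2 ratio of -1.15 (-2.04 to -0.33).

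Cited4 was not lower in every epithelial cluster. In the Slc5a11 cluster it had 155 f/f UMIs and 3 d/d UMIs at 126 and 167 CPM, a log2 ratio of 0.40 (-1.89 to 1.98). In a small cluster led by Cbs and Chst10, with 14 f/f and 61 d/d cells, it had 3 and 17 UMIs at 207 and 310 CPM, the highest d/d level of the epithelial clusters. The intervals of both ratios include 0. As the Slc5a11 cluster held 1362 f/f and 23 d/d cells, the Cited4 ratio outside glands also mixes levels with the make-up of the clusters.

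Sox9 did not share the direction of the other regulators. In epithelial-like cells it had 95 f/f UMIs (34.0 CPM, 27.5 to 41.6) and 43 d/d UMIs (44.8 CPM, 32.4 to 60.4), a log2 ratio of 0.40 (-0.16 to 0.93). Outside the glandular sub-cluster it was higher in d/d, at 39.0 against 18.3 CPM (36 and 40 UMIs), a log2 ratio of 1.10 (0.40 to 1.78). In the glandular sub-cluster it was at 91.9 CPM in f/f and 194 CPM in d/d (55 and 7 UMIs), a log2 ratio of 1.08 (-0.30 to 2.22). Of the 43 Sox9 UMIs in d/d epithelial-like cells, 31 lay in the mitotic cluster, which held 61.8% of those cells. The Sox9 level in that cluster was 47.9 CPM against 25.9 CPM in f/f, a log2 ratio of 0.89 (0.003 to 1.81). Where the Slc5a11 cluster was left out, as an alternative chosen after seeing the data, the log2 ratio was -0.29 in epithelial-like and 0.25 in luminal-gated cells. Subtracting the level of stroma-like cells, 4.26 CPM in f/f and 27.3 CPM in d/d from 4 UMIs each, gave -0.77 and 0.05. The higher Sox9 level in the d/d epithelium thus depends on which epithelial cells are counted and on the background assumed.

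**Figure D2:**
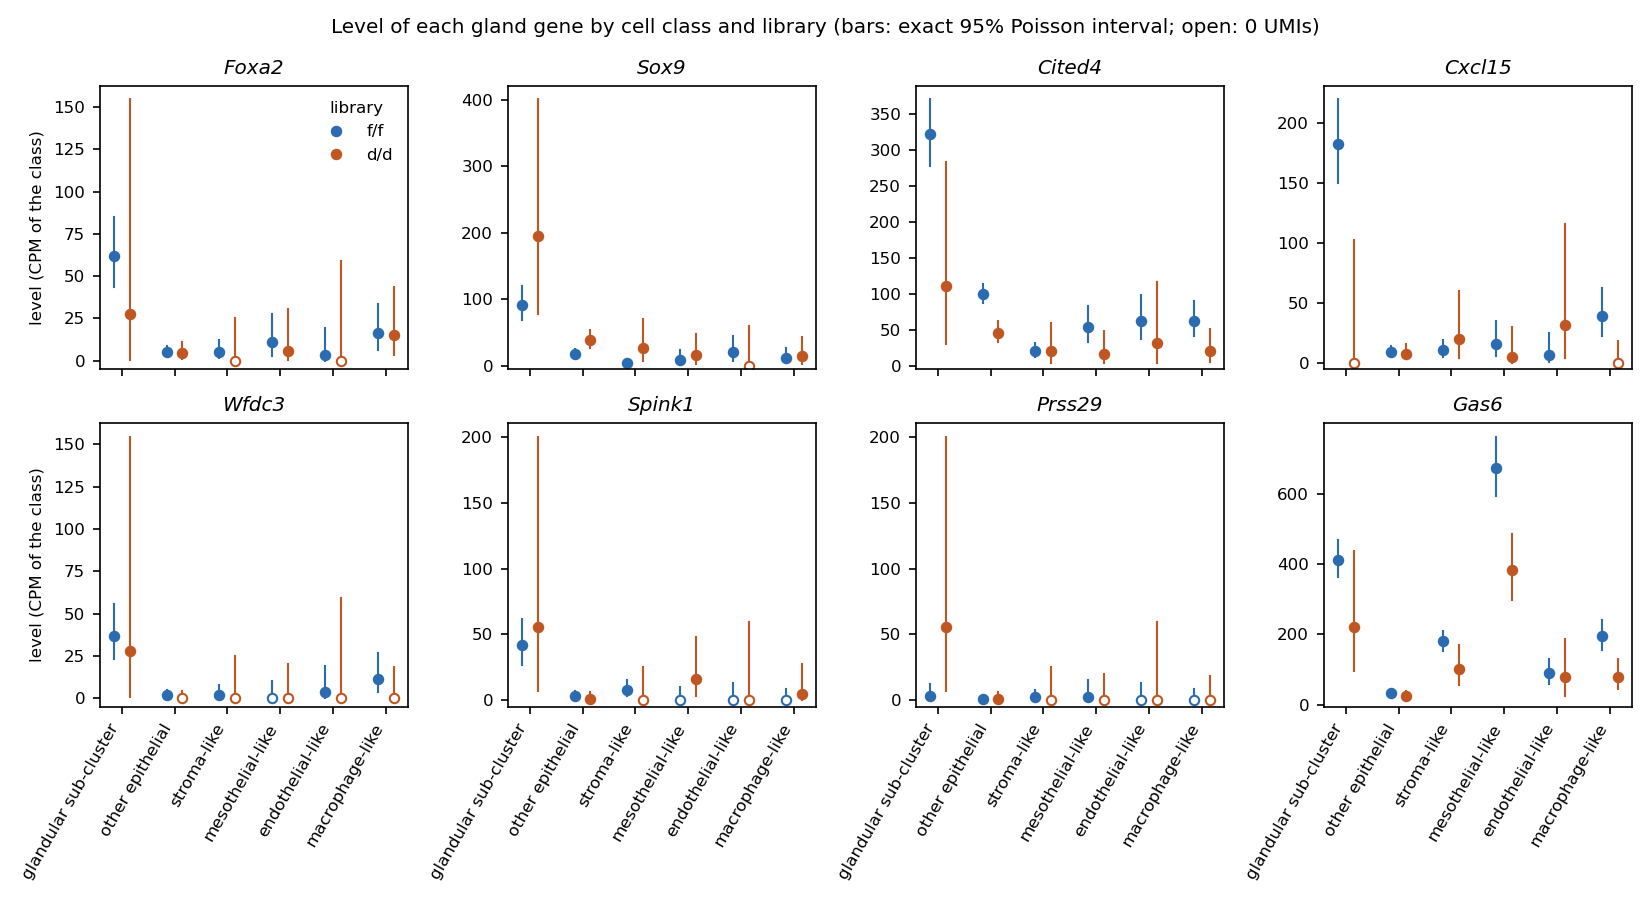
Level of each of the 8 genes in CPM of the class (y axis, its own scale in each panel) for 6 cell classes in the f/f (blue) and d/d (orange) libraries, with exact 95% Poisson intervals and open points where no UMI was found. In f/f, 6 of the 8 genes are highest in the glandular sub-cluster, whereas Gas6 is highest in mesothelial-like cells and Prss29 rests on at most 4 UMIs in any class.

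Of the secreted products, Cxcl15 was not detected in the d/d glandular sub-cluster. It had 129 UMIs in f/f epithelial-like cells (46.2 CPM, 38.6 to 54.9) and 7 in d/d (7.30 CPM, 2.93 to 15.04), a log2 ratio of -2.66 (-4.01 to -1.58), which is a 6.33-fold lower level (2.99 to 16.1). The size of this ratio depended on the cells counted, with -1.11 (-2.24 to -0.14) for classes set from marker UMIs per cell and -1.45 (-2.11 to -0.84) for all deposited barcodes. The f/f glandular sub-cluster held 109 of these UMIs, 182 CPM, and the d/d glandular sub-cluster held 0. With a floor of 3 counts over the sub-cluster, that is at least 2.19-fold lower, and by the exact interval at least 1.75-fold lower. In f/f, 12.1% (9.80 to 14.8) of the glandular sub-cluster cells had a Cxcl15 UMI, and 0 of 45 d/d cells, which allows a share of cells with a UMI of up to 6.67% by the floor of 3 counts and 7.87% by the exact interval. The 7 d/d UMIs came from the other epithelial sub-clusters, at 7.58 CPM against 9.13 CPM in f/f, a log2 ratio of -0.27 (-1.75 to 1.03). By the clustering of all cells, 2 of the 7 lay in the cluster led by Bpifb5, Krt23, Slc2a3 and Cxcl15. Of its 54 d/d cells, 43 lay in the glandular sub-cluster. Cxcl15 was in that cluster at 167 CPM in f/f and 49.2 CPM in d/d (107 and 2 UMIs), a log2 ratio of -1.76 (-4.83 to 0.12). Stroma-like cells stood at 10.7 and 20.5 CPM, the latter from 3 UMIs of a single cell.

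Wfdc3 and Spink1 were both rare transcripts found mainly in gland cells. Wfdc3 had 26 UMIs in f/f epithelial-like cells (9.32 CPM, 6.09 to 13.7), 22 of them in the glandular sub-cluster, and 1 in d/d (1.04 CPM, 0.026 to 5.81). The log2 ratio was -3.16 (-8.52 to -0.55), and the single d/d UMI lay in the glandular sub-cluster. Across all cells Wfdc3 had 40 f/f UMIs and that 1 d/d UMI. Spink1 had 32 f/f UMIs (11.5 CPM, 7.84 to 16.2) and 3 d/d UMIs (3.13 CPM, 0.65 to 9.14), a log2 ratio of -1.87 (-4.23 to -0.20). In the glandular sub-cluster Spink1 had 25 and 2 UMIs at 41.8 and 55.5 CPM, a log2 ratio of 0.41 (-2.71 to 2.41), so its level per gland cell was not resolved. When all deposited barcodes were used, the epithelial Spink1 log2 ratio turned to 0.39. All 19 Spink1 UMIs in the d/d barcodes that had been left out came from a single barcode.

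Gas6 was measured best of the secreted products, and it was lower in d/d in several cell classes. Epithelial-like cells had 319 f/f UMIs (114 CPM, 102 to 128) and 32 d/d UMIs (33.4 CPM, 22.8 to 47.1), a log2 ratio of -1.78 (-2.35 to -1.25). In the glandular sub-cluster it was at 413 CPM in f/f and 222 CPM in d/d (247 and 8 UMIs), a log2 ratio of -0.89 (-2.12 to 0.11). In the other epithelial sub-clusters it was at 32.9 and 26.0 CPM (72 and 24 UMIs), a log2 ratio of -0.34 (-1.07 to 0.35). Gas6 was not confined to glands. Mesothelial-like cells had 673 CPM in f/f and 383 CPM in d/d (250 and 70 UMIs), a log2 ratio of -0.81 (-1.22 to -0.43). Stroma-like cells had 180 and 102 CPM (169 and 15 UMIs), a log2 ratio of -0.81 (-1.68 to -0.05), and macrophage-like cells 196 and 79.7 CPM (85 and 16 UMIs), a log2 ratio of -1.30 (-2.17 to -0.52). These 3 log2 ratios and the epithelial one all lie below 0 with their intervals, while that of endothelial-like cells was -0.16 (-1.89 to 1.25). Of all Gas6 UMIs, epithelial-like cells held 33.0% in f/f and 21.2% in d/d.

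Prss29 was close to absent at this stage in both libraries. It had 7 UMIs over all f/f cells and 3 over all d/d cells, 4 and 3 of them in epithelial-like cells. Its neighbour Prss28 had 0 UMIs in the epithelial-like cells of both. No change in Prss29 could be detected at this depth.

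Counted together, 7 of the 8 genes had at least 20 UMIs over both libraries in epithelial-like cells, and 6 of these were more than 2-fold lower in d/d, all but Sox9. Of all 10664 genes with as many UMIs, 7.21% were more than 2-fold lower. The interval of the ratio lay below 0 for the same 6 members, and for 18.2% of all genes. The median log2 ratio of the 7 was -1.78, and that of all genes -0.02. As the 8 genes were chosen with earlier results of these data known, these counts only describe them. They do not measure gland genes as a group. Among genes with at least 100 UMIs, 3 of 4 members were more than 2-fold lower, Cited4, Cxcl15 and Gas6, against 4.58% of all 7452 genes. Over all cells of the libraries, 4 of 7 members were past that fold, against 4.82% of all genes. With all deposited barcodes or with classes set from marker UMIs per cell, 4 members were past it in epithelial-like cells. In the former Foxa2 was at -0.96 (-1.96 to -0.07), and in the latter the interval of Foxa2 included 0 (-1.18, -3.16 to 0.35). Scaling to the epithelial markers, or by TMM, left the count at 6.

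The epithelial ratios mix the smaller share of gland cells, the different make-up of the other epithelial clusters and the level inside and outside the glands. The separate ratios differed from gene to gene. Of the 7 members counted in the glandular sub-cluster, 3 were more than 2-fold lower in d/d, Foxa2, Cited4 and Cxcl15, and 1 more than 2-fold higher, Sox9. Cxcl15 was past 2-fold there only by the floor of 3 counts. The background there was 13.3% lower and 9.11% higher, since 45 d/d cells with 36025 UMIs give wide scatter. The median of the members was -0.89, against -0.03 for all genes. Only for Cited4 and Cxcl15 did the interval lie wholly below 0. In the cluster led by Bpifb5, Krt23, Slc2a3 and Cxcl15, that of Cited4 did too (log2 ratio -1.64, -3.53 to -0.26). There the interval of Cxcl15 included 0 (-1.76, -4.83 to 0.12). In the luminal-gated cells, 4 of 5 counted members were more than 2-fold lower, against 6.77% of genes, and Sox9 was more than 2-fold higher, against 7.68%. That class still held 290 f/f and 29 d/d cells of the glandular sub-cluster. Between luminal-gated cells and the other epithelial sub-clusters, the log2 ratio went from -1.80 to -0.27 for Cxcl15, from -1.21 to -0.34 for Gas6 and from -1.18 to -0.21 for Foxa2. That of Cited4 went from -1.31 to -1.13, and its interval, unlike those of the other 3, lay below 0 in the other sub-clusters too.

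**Figure D3:**
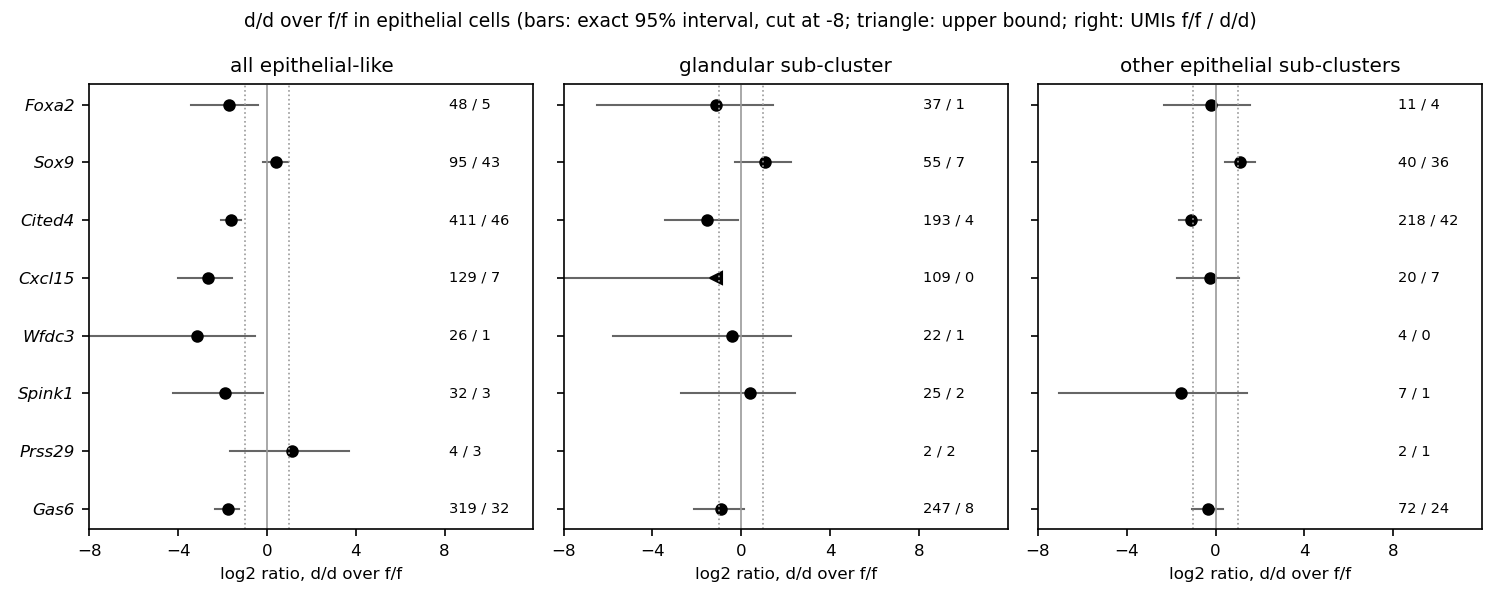
Log2 of the d/d level divided by the f/f level (x axis) for each gene in all epithelial-like cells, in the glandular sub-cluster and in the other epithelial sub-clusters, with exact 95% intervals drawn to -8, a triangle for an upper bound, and the UMIs of both libraries at the right of each panel. In the first panel 6 intervals lie below 0, whereas outside the glands only that of Cited4 does and that of Sox9 lies above 0.

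Where the 8 genes stood among all genes as marks of gland cells was asked in the f/f library, where both gates held many cells. By the per-cell gate, all 6 members with at least 20 UMIs were at least 2-fold higher in glandular-gated than in luminal-gated cells, as were 5.62% of all 9915 genes. The levels were 338 against 69.3 CPM for Gas6 (log2 ratio 2.28, 1.91 to 2.65), 133 against 28.0 CPM for Cxcl15 (2.24, 1.64 to 2.84) and 94.7 against 22.3 CPM for Sox9 (2.09, 1.37 to 2.78). Foxa2 was at 44.2 against 10.4 CPM (2.08, 1.002 to 3.11) and Cited4 at 278 against 114 CPM (1.28, 0.91 to 1.64). Gas6 ranked 49, Cxcl15 54, Sox9 69, Foxa2 70, Cited4 317 and Spink1 497 of the 9915 genes. The interval of Spink1, at 15.8 against 7.60 CPM, included 0 (log2 ratio 1.06, -0.75 to 2.57).

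The sub-cluster put the secreted products first. It was drawn from the same cells, with the 8 genes and the gate genes left out of the clustering, so its ratios are descriptions. Of 10149 genes, Wfdc3 ranked 8 (36.7 against 1.83 CPM), Cxcl15 9 (182 against 9.13 CPM), Spink1 22, Gas6 26, Foxa2 28, Sox9 130 and Cited4 269. All 7 were at least 2-fold higher, against 7.29% of genes. In d/d, where 14.2% of genes passed that fold and the sub-cluster held 45 cells, Gas6 ranked 4 and Sox9 54 of 7060 genes, at 222 against 26.0 CPM and 194 against 39.0 CPM (8 and 7 gland UMIs). Both intervals lay above 0, at log2 3.09 (1.73 to 4.30) and 2.32 (0.90 to 3.50), and both genes were thus also higher in the few d/d cells of the sub-cluster. The 5 other genes with the highest f/f ratio by the per-cell gate, the gate genes apart, were Fam83a, Ttr, Tspan12, Krt23 and Snhg11. In epithelial-like cells Fam83a had 91 f/f UMIs and 1 d/d UMI, and Ttr, which encodes the thyroxine carrier transthyretin, had 72 and 0. Krt23, a keratin, had 121 and 43 UMIs at 43.4 and 44.8 CPM, a log2 ratio of 0.05 (-0.49 to 0.56), and Tspan12 had 80 and 43 at 28.7 and 44.8 CPM (0.65, 0.08 to 1.20).

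**Figure D4:**
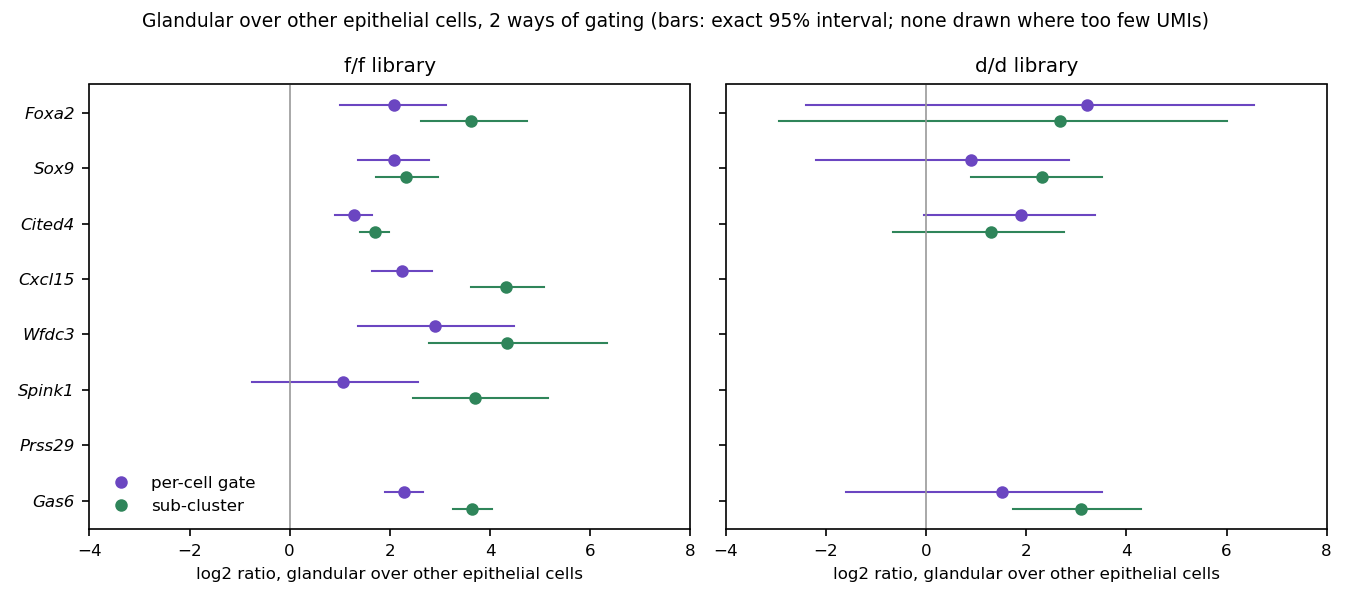
Log2 ratio of the level in glandular over other epithelial cells (x axis) for each gene in f/f (left) and d/d (right), by the per-cell gate (purple, against luminal-gated cells) and by the glandular sub-cluster (green, against the other sub-clusters), with exact 95% intervals. In f/f every drawn ratio is above 0, and the sub-cluster ratio is the larger for each of the 7 genes drawn. In d/d only Sox9 and Gas6 have an interval above 0, both by the sub-cluster.

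Some of the genes were also found in the same cells. Of the 103 f/f epithelial-like cells with a Cxcl15 UMI, 59.2% (49.1 to 68.8) had a UMI of a gate gene, against 21.5% (19.9 to 23.0) of the cells without Cxcl15. Gas6 was found in 31.1% against 7.70%, Cited4 in 24.3% against 11.3% and Foxa2 in 10.7% against 1.31%. For Sox9 (4.85% against 2.96%), Wfdc3 (1.94% against 0.693%) and Spink1 (2.91% against 0.912%) the intervals of both shares overlapped, and Prss29 was in 0 of the 103 cells. The median depth was 853 UMIs with and 827 without Cxcl15. Of the 47 f/f cells with a Foxa2 UMI, which were deeper (median 1082 UMIs against 827), 40.4% (26.4 to 55.7) had Gas6 against 8.01%, and 23.4% had Cxcl15 against 3.29%. In d/d, 6 epithelial-like cells had Cxcl15 and 5 had Foxa2, and 1 cell had both.

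Sox9-positive cells differed between the libraries in what they carried. In f/f, 48.8% (37.9 to 59.9) of 86 Sox9-positive epithelial-like cells had a gate gene, against 22.0% of the others, and 20.9% had Gas6 against 8.16%. In d/d, 7.50% (1.57 to 20.4) of 40 Sox9-positive cells had a gate gene, against 8.70% of the others, and 2.50% had Gas6 against 2.77%. Counted per cell, 19.5% (16.6 to 22.7) of f/f glandular sub-cluster cells had at least 2 of the 8 genes, and 4.44% (0.54 to 15.1) of the d/d ones. In the other epithelial sub-clusters these shares were 1.07% and 0.199%, and in stroma-like cells 0.698% and 0.495%.

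**Figure D5:**
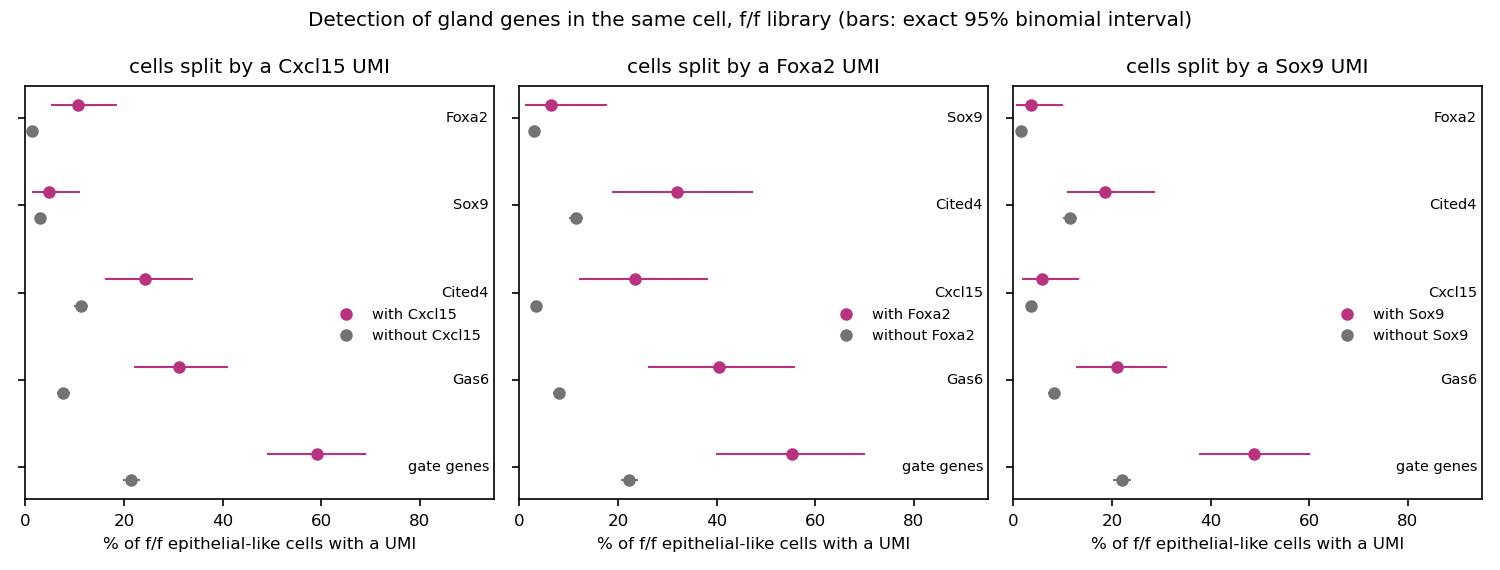
Percentage of f/f epithelial-like cells with a UMI of each gene (x axis), split into cells with (magenta) and without (grey) a UMI of Cxcl15, Foxa2 or Sox9, with exact 95% binomial intervals. Gas6, Cited4 and the gate genes are found more often in cells with Cxcl15 (31.1%, 24.3% and 59.2%) than in cells without it (7.70%, 11.3% and 21.5%).

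Outside the epithelium Gas6 was abundant, Prss29 had too few UMIs to compare, and the other 6 genes were lower in f/f than in the glandular sub-cluster. In f/f stroma-like cells Cxcl15 stood at 5.85% of its glandular level, Wfdc3 at 5.80%, Cited4 at 6.28%, Sox9 at 4.64%, Foxa2 at 8.62% and Spink1 at 17.9%. The 8 epithelial markers, from Cldn7 to Epcam, stood there at 2.60% to 13.7% of their level in all epithelial-like cells. As that base is wider than the glandular sub-cluster, the percentages of members and markers are not compared. On the wider base, f/f Spink1 was at 7.46 CPM in stroma-like and 11.5 CPM in epithelial-like cells (7 and 32 UMIs). Foxa2 was at 5.33 and 17.2 CPM (5 and 48 UMIs). Gas6 was at 43.6% in stroma-like and 163% in mesothelial-like cells. Cited4 was at 16.7% to 19.3% of its glandular level in f/f mesothelial-like, endothelial-like and macrophage-like cells. The 8 epithelial markers reached at most 44.3% (Epcam) of their epithelial-like level in macrophage-like cells. They stood at 21.2% to 34.3% of it in endothelial-like and at 19.7% to 241% in mesothelial-like cells. These percentages of Cited4 and the markers have different bases too and are not compared. In all f/f epithelial-like cells Cited4 was at 147 CPM (411 UMIs). It was at 53.9 CPM in mesothelial-like, 61.9 CPM in endothelial-like and 62.2 CPM in macrophage-like cells (20, 18 and 27 UMIs). The part of free RNA or mixed cells in these levels was not tested.

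By Pearson correlation of log2(CPM + 10) over 20 profiles, 10 cell classes in each library, the nearest of 9733 genes to Foxa2 were Slco4c1 (r = 0.87), Uckl1 (0.82) and Nfix (0.81). Those nearest to Sox9 were Rassf10 (0.88), Ckmt1 (0.88) and Nfe2l3 (0.87), and to Cited4 they included Actn2 (0.92) and Ihh (0.89). Cxcl15 was nearest to Bcl7b (0.77), Rasa1 (0.74) and Edrf1 (0.73), and Gas6 to Satb1 (0.72), Txnip (0.71) and Hpgd (0.69). The profiles of a library share its depth and free RNA, so these are descriptions. In epithelial-like cells Slco4c1, an anion transporter, had a log2 ratio of -1.37 between the libraries, and Ihh, the progesterone-induced hedgehog ligand of the uterine epithelium, had -0.63. Sox9 and Foxa2 had an r of 0.76 with each other, and Cxcl15 and Foxa2 an r of 0.10. Some d/d classes are small. Cxcl15 was at 80.5 CPM from 1 UMI in smooth muscle and pericyte-like cells and at 75.7 CPM from 2 UMIs in T and NK-like cells. Foxa2 had 0 UMIs in both. The low r of Cxcl15 and Foxa2 is therefore not read as a lack of association, and in single f/f cells they were found together more often.

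Among other genes linked to uterine glands, the share more than 2-fold lower in d/d was near that of all genes. From a list of 26, 22 had at least 20 UMIs in epithelial-like cells, of which 1 was more than 2-fold lower in d/d and 6 more than 2-fold higher, against a background of 7.21% and 7.38%. The median log2 ratio was -0.06. The list was chosen with earlier results of these data known and was not limited to genes higher in f/f glands. In the f/f glandular sub-cluster against the other epithelial sub-clusters, Esr1 was at 1896 against 735 CPM and Pgr at 174 against 435 CPM. Its counts are therefore not set against those of the 8 genes. Ttr was the lower gene, at least 8.25-fold lower with a floor of 3 counts over the class, with an exact interval of the log2 ratio that ends at -2.71. The higher genes were Lgr5, a WNT-pathway receptor of epithelial stem cells (6 f/f and 21 d/d UMIs, log2 ratio 3.35, 1.99 to 4.95), Aldh1a1, a retinaldehyde dehydrogenase (70 and 74 UMIs, 1.62, 1.13 to 2.11) and Axin2, a target and inhibitor of WNT signalling (202 and 188 UMIs, 1.44, 1.14 to 1.73). The others were the WNT ligands Wnt7a (1.42, 1.16 to 1.68) and Wnt4 (1.30, 0.52 to 2.07) and the implantation cytokine Lif (1.38, 0.35 to 2.40). Of these 6 genes only Axin2 was higher in f/f glands than in other epithelial cells, 174 against 44.7 CPM, whereas Wnt7a was at 11.7 against 115 CPM.

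Among families and partners, 1 of the 3 receptors of Gas6 was also more than 2-fold lower in d/d. The background for the counts of these lists was 7.21% of all genes lower and 7.38% higher. Mertk was at 39.1 CPM in f/f and 11.5 CPM in d/d epithelial-like cells (109 and 11 UMIs), a log2 ratio of -1.77 (-2.81 to -0.87), and 79 of the f/f UMIs lay in the glandular sub-cluster (132 against 13.7 CPM elsewhere in the epithelium). Axl (92 and 35 UMIs) and Tyro3 (102 and 26 UMIs) had log2 ratios of 0.15 (-0.46 to 0.72) and -0.43 (-1.11 to 0.20). Of 6 counted serine protease genes only Prss8, which encodes prostasin, was past 2-fold (141 and 15 UMIs, log2 ratio -1.69, -2.57 to -0.92), and of 5 counted protease inhibitors none was, including Wfdc2 at -0.07 (-0.23 to 0.08). The partners of CITED4, Ep300 and Crebbp, were at -0.05 and -0.75. Of 4 counted SOX genes only Sox6 was past 2-fold (7 and 15 UMIs, 2.64, 1.26 to 4.18). Sox6 was at 215 CPM in f/f mesothelial-like cells, and mesothelial markers summed to 48.7 (f/f) and 113 CPM (d/d) in epithelial-like cells. The part of mesothelial RNA in the epithelial Sox6 value was not tested. Sox17, also a regulator of uterine glands, was at 895 and 749 CPM (-0.26, -0.38 to -0.14). Among chemokine genes Cxcl14 (72 and 127 UMIs, 2.36, 1.93 to 2.80) and Cxcl16 (73 and 52 UMIs, 1.05) were higher in d/d, and Cxcl12 (18 and 3 UMIs, -1.04, -3.45 to 0.73) was at a lower value whose interval included 0. For Cxcl14 the level in stroma-like cells was also higher, 1086 CPM in d/d against 235 CPM in f/f, and its part in the epithelial value was not tested.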

How the data were processed

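UMI counts per gene and barcode were deposited by the authors as whole-number counts with no normalisation. Per the file headers, Cell Ranger 9.0.0 made them. The submitters' processing notes list both mm10 and GRCm39, so the authors' build is ambiguous and coordinates here are those of RefSeq for GRCm38.p6.

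Barcodes with at least 200 genes and at most 10% mitochondrial UMIs were kept. Scrublet in scanpy 1.11.5 called 1 f/f and 5 d/d barcodes as doublets, which were left out. These were too few for the caller to have worked, and leaving out the highest 5% of scores was tried instead. Counts were normalised and log-transformed for clustering only (2000 variable genes without the 8 genes and the gate genes, 30 components, 15 neighbours, Leiden resolution 1). A cluster was named where at least 3 markers of a class reached 50 CPM, their mean level relative to the best cluster was at least 0.3 and led the next class by 0.15, and its 10 leading genes did not go against the name. This naming rule was set after the clusters had been seen. Names end in "-like" since no label gives cell types. Of the 12 clusters, 1 mixed epithelial and stromal markers and stayed unnamed.

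UMIs were summed per class and library and divided by the class total (CPM). Levels have exact Poisson intervals, shares exact Clopper-Pearson intervals, and ratios exact conditional binomial intervals, all at 95%. The interval of a difference of shares combines the distances to both shares' bounds in quadrature. A count of 0 was set to a floor of 3 counts over the class. No test was run, since each genotype had 1 library. The ratio script was tested on simulated data with known fold changes. TMM factors came from edgeR 4.0.16 for a scaling alternative only.

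The members, gate genes and gene lists were chosen with earlier results of these data known. Named genes were the 8 members, the 3 genes nearest to each member with at least 50 UMIs, the 5 highest glandular over luminal ratios, and listed genes with at least 20 UMIs past 2-fold. Levels of different genes are not compared, as probes differ between genes. The other list genes named (Axl, Tyro3, Wfdc2, Ep300, Crebbp, Sox17 and Prss28) were chosen after their values were seen. A gene that the rule names is not reported here.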

Additional observations from a re-analysis of the deposited data

Results flagged for a closer look

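Spink1 was higher in d/d among the barcodes that the filters had removed, in contrast to the cells that were kept. These were 281 f/f barcodes with 1303244 UMIs and 300 d/d barcodes with 1162821 UMIs, 280 and 295 of them removed for more than 10% mitochondrial UMIs. They held 8 f/f and 19 d/d Spink1 UMIs, 6.14 and 16.3 CPM, a log2 ratio of 1.41 (0.15 to 2.81). All 19 d/d UMIs came from 1 barcode, whereas the 8 f/f UMIs came from 7 barcodes. The removed barcodes held 19.1% of the f/f and 40.6% of the d/d UMIs. Among them Cited4 (107 and 66 UMIs, log2 ratio -0.53, -0.998 to -0.08) and Gas6 (119 and 63 UMIs, -0.75, -1.22 to -0.30) were lower in d/d, as in the cells that were kept. Foxa2, lower in the cells that were kept, had 4 and 10 UMIs there (log2 ratio 1.49, -0.31 to 3.61).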

How the results depend on the processing

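Of 525 values under alternative settings, 487 stayed near the value reported, 34 moved further and 4 reversed. Single genes account for 484 of them, with 455, 25 and 4. For ratios and shares, near means inside the counting interval of the value reported. A reversal was scored only where the value reported was at least 1 in size, so smaller values could change sign unscored. Sox9 in glandular-gated cells, reported at -0.14, lay below 0 in only 11 of 16 alternatives, with 0 scored as reversed. No paired analysis was possible because each genotype had 1 library, and no library could be left out. The difference in glandular share, -7.77 percentage points as reported, was -4.96 with classes set from marker UMIs per cell, -14.2 with a gate of at least 1 UMI and -3.51 with at least 3, -3.55 with cells thinned to 500 UMIs, -6.23 without Syn2, -3.14 without Gulo and -5.32 without Dab1 in the gate, and -20.1 for the whole sub-cluster. The number of members more than 2-fold lower in the d/d epithelium, 6 as reported, was 3 among genes with at least 100 UMIs, since fewer members were counted. The log2 ratios that reversed rest on few UMIs. Spink1 in the epithelium was 0.39 with all deposited barcodes, Spink1 in glandular-gated cells -0.079 with a gate of at least 1 UMI, and Spink1 in glandular over luminal f/f cells -0.24 without Syn2. Prss29 in the epithelium was -0.48 with classes from marker UMIs per cell. The cause was not tested. The 45 d/d cells of the glandular sub-cluster, with 36025 UMIs, limit every value inside d/d glands, where 1 UMI is 27.8 CPM. A single library per genotype gives no measure of the spread between mice.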
